A study of Rattus norvegicus with 32 samples.

Results

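The 10 genes described here act where mitochondria choose between glucose and fat: the pyruvate dehydrogenase kinases Pdk1, Pdk2, Pdk3 and Pdk4, the uncoupling protein gene Ucp2, the carnitine shuttle genes Cpt1a, Cpt1c, Cpt2 and Slc25a20, and the transcriptional coactivator gene Ppargc1a. They were chosen by name for those functions, with earlier results of these data known. All 10 were found among the 22587 genes of the deposited table. Expression was measured by mRNA sequencing in hypothalamus and brainstem of 13-week-old rats of the inbred Wistar Kyoto strain, in 32 libraries. In each tissue there were 4 groups of 4 libraries. The ADREX ozone group had both adrenal glands taken out (total bilateral adrenalectomy, ADREX), and with them the main source of corticosterone and adrenaline, and breathed ozone at 0.8 ppm for 4 hours. The ADREX air group had the same operation and breathed filtered air for 4 hours. The sham ozone and sham air groups had a sham operation before the same exposures. Tissue was collected directly after exposure, and the labels state no hormone replacement. No label says that each library came from a separate animal, so each p-value reflects library-to-library spread, which may be technical.

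Pyruvate dehydrogenase turns pyruvate from glucose into acetyl-CoA inside the mitochondrion. The 4 kinases phosphorylate it and switch it off, which spares glucose and leaves fatty acids as the fuel. Long-chain fatty acids enter the mitochondrion bound to carnitine: carnitine palmitoyltransferase 1 attaches it at the outer membrane, the carrier encoded by Slc25a20 moves the acylcarnitine inward, and Cpt2 takes the carnitine off again. In brain, glucose is the main fuel, and fatty acid oxidation is known mostly from astrocytes. In liver and muscle, Pdk4 is known as the kinase whose transcript goes up in fasting and under glucocorticoids.

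Values are normalized counts, which are reads scaled by a size factor for each library, and they are not scaled by gene length, so levels are compared between samples and not between genes. The libraries held 6.44 to 12.4 M reads, and the lowest count of Pdk4 in any library was 17 reads. The tissue labels fitted the regional markers: all 8 tested hypothalamic markers were higher, and all 8 tested Hox genes of the hindbrain lower, in hypothalamus than in brainstem. Of 10 liver transcripts listed, 9 were in the table, and their summed level ran from 11.2 to 3313 RPM (reads scaled to library total). The sum was over 2000 in 4 libraries, which were hypothalamus ADREX air 68, hypothalamus sham ozone 18, hypothalamus sham air 2 and brainstem sham ozone 18. For some results of the members that include these libraries, the value without them is given beside it. For genes outside the members no such value is given, so their changes may rest in part on these libraries.

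The promoters of Pdk4 and Pdk2 are shown to set these sequences beside each other. Pdk4 was the member that differed between ADREX and sham rats in ozone. Pdk2 was the other kinase whose ozone and air groups did not overlap in sham brainstem. Of the 10 members 9 had an entry in the RefSeq promoter table (assembly GRCr8), and Cpt1c did not. Each sequence is the 250 bases before the start site, 5′ to 3′ on the gene's own strand, with CpG dinucleotides in capitals. Pdk4 lies on the minus strand, at chr4:34568330-34568579, and Pdk2 on the minus strand, at chr10:80483913-80484162.
Pdk4: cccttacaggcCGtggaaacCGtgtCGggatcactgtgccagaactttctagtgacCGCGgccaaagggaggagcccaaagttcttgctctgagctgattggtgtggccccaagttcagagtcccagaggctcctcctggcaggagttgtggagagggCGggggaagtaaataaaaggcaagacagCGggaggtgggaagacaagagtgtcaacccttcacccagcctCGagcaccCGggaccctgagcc
Pdk2: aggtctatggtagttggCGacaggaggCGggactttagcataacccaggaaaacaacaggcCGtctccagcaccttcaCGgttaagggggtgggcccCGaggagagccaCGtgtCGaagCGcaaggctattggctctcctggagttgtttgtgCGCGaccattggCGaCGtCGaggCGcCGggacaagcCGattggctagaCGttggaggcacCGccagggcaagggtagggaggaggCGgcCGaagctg
The Pdk4 window held 9 CpGs and had a GC content of 59.2%, and the Pdk2 window held 20 CpGs and had a GC content of 62.0%. Over all 33469 promoter windows the medians were 5 CpGs and 51.2%. The other members ranged from 3 CpGs (Ppargc1a) to 28 (Pdk3). A search on both strands for the palindromic glucocorticoid response element, its relaxed form, the PPAR direct repeat and the forkhead core GTAAACA found 0 matches in the 9 windows. The relaxed form holds every match of the palindrome. These motifs occur in 0.012%, 0.374%, 0.0508% and 3.21% of all windows, so a match was rare anywhere, and the search says only that these letters are not in these windows.

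Pdk4 was the member that differed between ADREX and sham rats breathing ozone, and it was lower in ADREX rats in both tissues. In hypothalamus of ADREX rats in ozone it had 22.5, 23.4, 30.0 and 19.9 normalized counts (libraries 81 to 84), against 129, 46.1, 141 and 65 in sham rats in ozone (libraries 17 to 20). In brainstem it had 46.7, 62.6, 49.96 and 61.6 in ADREX rats in ozone, against 240, 110, 248 and 125 in sham rats in ozone. The groups did not overlap in either tissue: each ADREX library lay below each sham library, as 6.64% of all genes in hypothalamus and 7.29% in brainstem had groups that did not overlap. Within the sham ozone group the values were uneven in both tissues, with libraries 17 and 19 high and libraries 18 and 20 low.

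**Figure D1:**
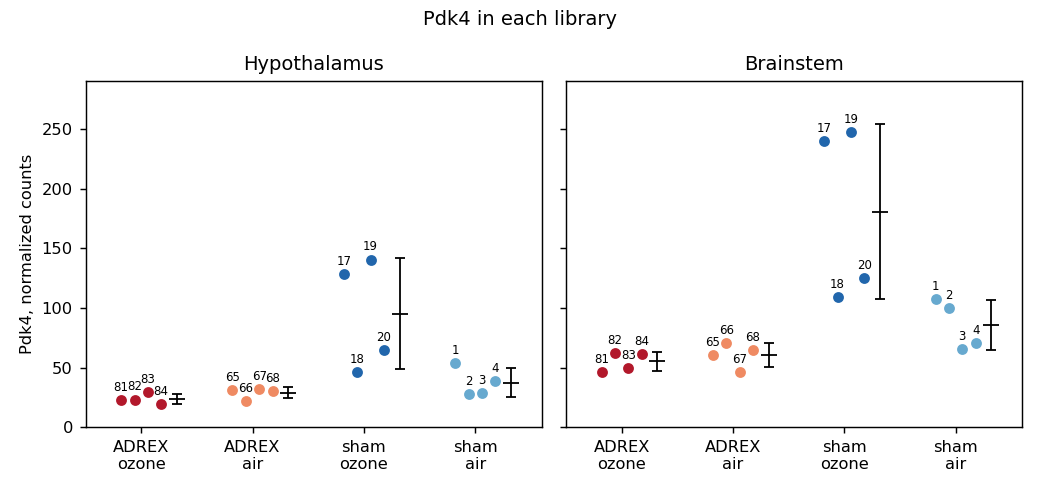
Normalized counts of Pdk4 (y axis, linear) in each library of the 4 groups of hypothalamus and of brainstem, with bars for the mean ± SD (n = 4 per group). The sham ozone libraries sit highest and are the most spread, from 46.1 to 141 in hypothalamus and from 110 to 248 in brainstem, and the ADREX groups with ozone and with air lie close together.

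The means were 23.96 ± 4.29 in ADREX rats and 95.1 ± 46.5 in sham rats in hypothalamus, and 55.2 ± 8.06 in ADREX rats and 181 ± 73.4 in sham rats in brainstem (SD, n = 4 each). The log2 change for ADREX against sham in ozone was -1.82 ± 0.31 (SE) in hypothalamus, with a limma Benjamini-Hochberg adjusted p of 0.00326. It was -1.61 ± 0.25 in brainstem, with an adjusted p of 0.00141. Without the liver-rich libraries the Pdk4 changes were -2.11 in hypothalamus and -1.82 in brainstem. Pdk4 was 1 of 10 members called in each tissue, where 2.24% of all genes tested were called in hypothalamus and 2.44% in brainstem, with 1.20% and 1.25% called lower. Changes are on the scale of log2(value + 1), and a call is an adjusted p under 0.05 over all genes tested.

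Among ozone-exposed rats, endothelial markers moved the other way. Of 8 listed, 7 were in the table and none was at 0 in any library. In hypothalamus all 7 had a positive change and 4 were called higher in ADREX rats, where 151 of 14483 genes were called higher. The sum of the 7 ran from 2310 to 2526 normalized counts in ADREX rats, against 1733 to 1820 in sham rats. In brainstem 6 of 7 had a positive change and 4 were called higher, where 172 of 14408 genes were called higher. The sum ran from 3358 to 3556 in ADREX rats, against 2245 to 2767 in sham rats. Red blood cell transcripts were lower in ADREX rats, like Pdk4, but with wide spread. Of 8 listed, 5 were in the table. The median log2 change was -2.41 over the 3 tested in hypothalamus and -2.47 over the 4 tested in brainstem, all negative and none called. Their sum ran from 49.2 to 1074 normalized counts in ADREX rats and from 590.1 to 4107 in sham rats in hypothalamus, and from 67.98 to 1388 in ADREX rats and from 983 to 5279 in sham rats in brainstem. Hbb, a beta-globin gene, was above 0 in every library. Oligodendrocyte markers had a positive change in ADREX rats for 7 of 8 in hypothalamus, with 4 called higher. In brainstem 6 of 8 had a positive change, with 2 called higher. Microglia markers had a positive change for 6 of 8 in hypothalamus, with 0 called, and for 5 of 8 in brainstem, with 1 called higher. Their sum in brainstem ran from 1854 to 1919 in ADREX rats, against 1413 to 1709 in sham rats. Of 8 astrocyte markers 2 had a positive change in hypothalamus and 4 in brainstem, with 1 called higher in each. The part of these cells in the Pdk4 result was not tested, and in bulk tissue fewer cells of a type and less RNA per cell cannot be told apart.

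The comparison of ozone with air asked whether Pdk4 moved with exposure under each operation. In sham hypothalamus Pdk4 had the ozone values above, against 54.1, 27.8, 29.2 and 39.2 normalized counts in air (libraries 1 to 4). In sham brainstem it had the ozone values above, against 108, 99.99, 65.3 and 70.7 in air. The sham groups overlapped in hypothalamus, where ozone library 18 lay below air library 1, and did not overlap in brainstem.

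The sham air means were 37.6 ± 12.2 in hypothalamus and 85.9 ± 21.03 in brainstem (SD, n = 4 each). The log2 change with ozone in sham rats was 1.22 ± 0.31 in hypothalamus (limma adjusted p = 0.0588) and 1.0 ± 0.25 in brainstem (limma adjusted p = 0.0828), neither of which passed the threshold. Without library 18, the lowest sham ozone library in both tissues, limma called it. The change was then 1.52 in hypothalamus (limma adjusted p = 0.00848) and 1.21 in brainstem (limma adjusted p = 0.0237). Leaving out high libraries weakened it. The limma adjusted p rose to 0.197 in hypothalamus without sham ozone 17 and to 0.304 in brainstem without sham ozone 19. Over single libraries left out, the lowest change was 0.99 in hypothalamus and 0.82 in brainstem. On the compared groups alone the limma adjusted p-values were 0.149 and 0.158. With all libraries kept, DESeq2 called Pdk4 in both tissues (adjusted p = 0.00317 in hypothalamus and 0.00670 in brainstem), and edgeR called it in hypothalamus (adjusted p = 0.0370) and not in brainstem (adjusted p = 0.0586). In limma no member was called in either tissue here, where 1.59% of genes were called in hypothalamus and 0.979% in brainstem. Both libraries numbered 18 are among the 4 rich in liver transcripts, and without all liver-rich libraries the changes were 1.39 (limma adjusted p = 0.0340) in hypothalamus and 1.21 in brainstem. The endothelial sum was lower with ozone in sham rats, at 1733 to 1820 against 2452 to 2715 in air in hypothalamus, and at 2245 to 2767 against 3125 to 3547 in air in brainstem, and its part in this change was not tested.

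In ADREX rats, Pdk4 in ozone was as above, against 31.4, 22.1, 31.8 and 30.4 in air in hypothalamus and 60.3, 70.4, 46.6 and 64.9 in air in brainstem (libraries 65 to 68). The log2 change with ozone was -0.26 ± 0.31 in hypothalamus (limma adjusted p = 0.770) and -0.13 ± 0.25 in brainstem (limma adjusted p = 0.939), and the groups overlapped. The 95% intervals, -0.91 to 0.39 and -0.66 to 0.41, leave room for a modest change either way. In this contrast no member and no gene was called by limma in either tissue, although 1163 of 14483 genes in hypothalamus and 851 of 14408 in brainstem had an unadjusted p under 0.05. DESeq2 called 0 and 1 genes there, and edgeR 0 in both.

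In air, ADREX against sham gave -0.33 ± 0.31 for Pdk4 in hypothalamus (limma adjusted p = 0.939) and -0.48 ± 0.25 in brainstem (limma adjusted p = 1.0). Neither passed, and the groups overlapped. By limma 0.0138% of the genes tested in hypothalamus and 0% in brainstem were called, and 545 genes in brainstem had an unadjusted p under 0.05. DESeq2 called 14 genes in hypothalamus and 16 in brainstem, and edgeR 2 and 0. Without the liver-rich libraries the Pdk4 change in hypothalamus was -0.48. Whether the ozone effect on Pdk4 differed by operation was tested directly by the interaction. It was -1.48 ± 0.44 in hypothalamus (unadjusted p = 0.00348, limma adjusted p = 0.410) and -1.13 ± 0.36 in brainstem (unadjusted p = 0.00594, limma adjusted p = 0.505). Without the liver-rich libraries the Pdk4 interaction was -1.63 in hypothalamus and -1.33 in brainstem, again not called. Both were negative, and neither passed over all genes, of which 0.138% and 0.201% were called. The ozone effect in sham rats did not pass a difference between tissues either: hypothalamus minus brainstem was 0.22 ± 0.41 (limma adjusted p = 0.985), and the sign turned without hypothalamus sham ozone 19 (-0.012). In that contrast limma called 0% of genes, with 416 at an unadjusted p under 0.05, edgeR called 0 and DESeq2 called 2.

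**Figure D2:**
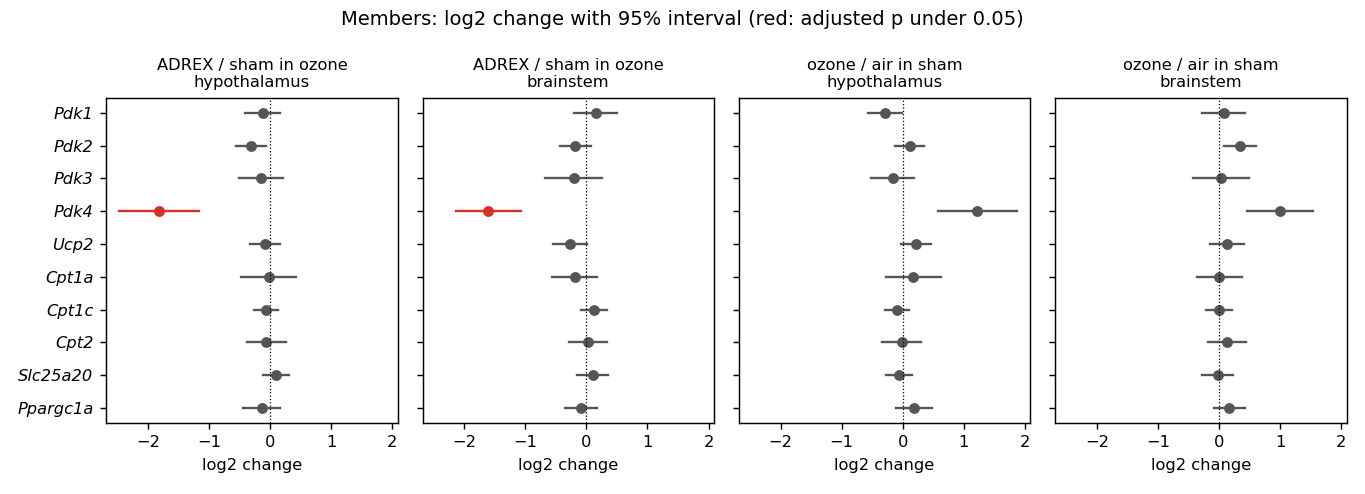
Log2 change of each of the 10 members with its 95% interval (x axis) in hypothalamus and brainstem, for ADREX against sham in ozone and ozone against air in sham. Pdk4 lies furthest from 0, at -1.82 and -1.61 for ADREX against sham in ozone. For ozone against air in sham it lies at 1.22 and 1.0. The other 9 members lie between -0.31 and 0.35.

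Over the 32 libraries, with the mean of each tissue taken off, the genes whose log2 values followed Pdk4 most closely were Klf9 (Pearson r = 0.90), a Krüppel-like transcription factor, Sgk1 (r = 0.90), a serine/threonine kinase, and Arrdc2 (r = 0.90), an alpha-arrestin. These were the top 3 of 12906 genes ranked. The libraries share their groups, and the 3 genes were picked on these same libraries. The correlations are thus a description, and the changes that follow come in part from the picking and add no support. All 3 were lower in ADREX than in sham rats in ozone: in hypothalamus by log2 changes of -0.97 ± 0.12 (Klf9), -1.82 ± 0.34 (Sgk1) and -1.26 ± 0.26 (Arrdc2), with limma adjusted p-values of 1.29e-04, 0.00698 and 0.0122. In brainstem the changes were -1.09 ± 0.20, -2.70 ± 0.42 and -1.17 ± 0.19, with limma adjusted p-values of 0.00457, 0.00143 and 0.00213. With ozone in sham rats the limma adjusted p-values of Klf9, Sgk1 and Arrdc2 were 0.0224, 0.133 and 0.0619 in hypothalamus. They were 0.0656, 0.286 and 0.00423 in brainstem, so Sgk1 was called in neither tissue.

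Sgk1 averaged 273 ± 60.3 normalized counts in ADREX ozone and 1037 ± 439 in sham ozone in hypothalamus, and 214 ± 89.1 in ADREX ozone and 1441 ± 725 in sham ozone in brainstem (SD, n = 4 each). Of the other members, Ppargc1a followed Pdk4 most closely (r = 0.52, rank 384), then Pdk3 (0.40), Pdk2 (0.34) and Ucp2 (0.25). Cpt1a, Pdk1, Cpt2 and Cpt1c lay within 0.06 of 0, and Slc25a20 ran opposite (r = -0.57, rank 12589).

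Of the other kinases, Pdk2, the ubiquitous member of the family, came closest to a change. In sham brainstem it had 221, 265, 229 and 218 normalized counts in ozone, against 194, 170, 177 and 189 in air, and each ozone library lay above each air library. The log2 change was 0.35 ± 0.12 (limma adjusted p = 0.320; 0.29 without liver-rich sham ozone 18, adjusted p = 0.555) and did not pass, where 7.18% of all genes had groups that did not overlap. In ozone-exposed hypothalamus Pdk2 had 157, 171, 123 and 159 in ADREX rats, against 184, 168, 187 and 217 in sham rats, a log2 change of -0.31 ± 0.11 (limma adjusted p = 0.240), and of -0.37 without the liver-rich libraries. These groups overlapped, since ADREX library 82 lay above sham library 18.

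Pdk1, the kinase known as a target of the hypoxia factor HIF-1, averaged 93.1 ± 10.6 in ozone and 115 ± 17.96 in air in sham hypothalamus (SD, n = 4 each). Its log2 change was -0.29 ± 0.13 (limma adjusted p = 0.383), and -0.40 without the liver-rich libraries. In brainstem its ADREX libraries averaged 91.8 ± 8.22 and the sham libraries 73.4 ± 14.7 in air, a change of 0.33 ± 0.17 (limma adjusted p = 1.0). Pdk3, the kinase least sensitive to pyruvate, averaged between 202 and 245 in the 4 hypothalamic groups and between 263 and 292 in the 4 brainstem groups, and was most uneven in brainstem ADREX ozone, where it ran from 143 to 330. No Pdk3 contrast of ozone or operation had a log2 change beyond -0.21 to 0.04.

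Ucp2 encodes an inner-membrane carrier whose loss or gain is known to shift glucose and fat use, and it is well studied in hypothalamic neurons. In sham hypothalamus it had 304, 234, 249 and 231 normalized counts in ozone, against 223, 230, 226 and 192 in air. The groups did not overlap, by a margin of less than 1 count between ozone library 20 and air library 2, where 9.62% of all genes had groups that did not overlap. The log2 change was 0.22 ± 0.12 (limma adjusted p = 0.466), and 0.28 without the liver-rich libraries. In the other contrasts of ozone or operation, interactions aside, the log2 changes of Ucp2 were -0.27 to 0.17, with adjusted p-values of 0.487 or above.

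Ppargc1a encodes PGC-1α, a coactivator of mitochondrial and fat-oxidation genes. In ADREX brainstem it had 316, 322, 346 and 334 normalized counts in ozone, against 225, 299, 250 and 287 in air. These groups did not overlap either, where 2.19% of all genes had groups that did not overlap, and the log2 change of 0.32 ± 0.12 (limma adjusted p = 0.801) was not called. In sham brainstem it averaged 354 ± 60.2 in ozone and 311 ± 14.8 in air, and in sham hypothalamus 281 ± 16.7 in ozone and 248 ± 24.9 in air (SD, n = 4 each). In each of the 4 comparisons of ozone with air the mean was higher in ozone, by log2 0.17 to 0.32, and no comparison passed.

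The carnitine shuttle genes were not called in any contrast of ozone or operation. Cpt1a, which encodes the rate-limiting carnitine palmitoyltransferase of liver and astrocytes, varied most with single libraries. In hypothalamus the 3 libraries rich in liver transcripts were the 3 highest for Cpt1a, at 632 to 796 normalized counts, against 357 to 565 in the other 13 libraries. In brainstem the liver-rich library had 777 and ranked second to sham air 3 at 794. Between ozone and air in sham hypothalamus Cpt1a averaged 531 ± 178 in ozone and 463 ± 113 in air (SD, n = 4 each), a log2 change of 0.17 ± 0.21 (limma adjusted p = 0.773), and of 0.12 ± 0.10 without the liver-rich libraries (limma adjusted p = 0.789). In ADREX hypothalamus it averaged 506 ± 54.7 in ozone and 454 ± 139 in air, a change of 0.20 ± 0.21 (limma adjusted p = 0.753). Without the liver-rich libraries the ADREX change was 0.39 ± 0.10 (limma adjusted p = 0.314). The part of the liver transcripts in the Cpt1a values was not tested.

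**Figure D3:**
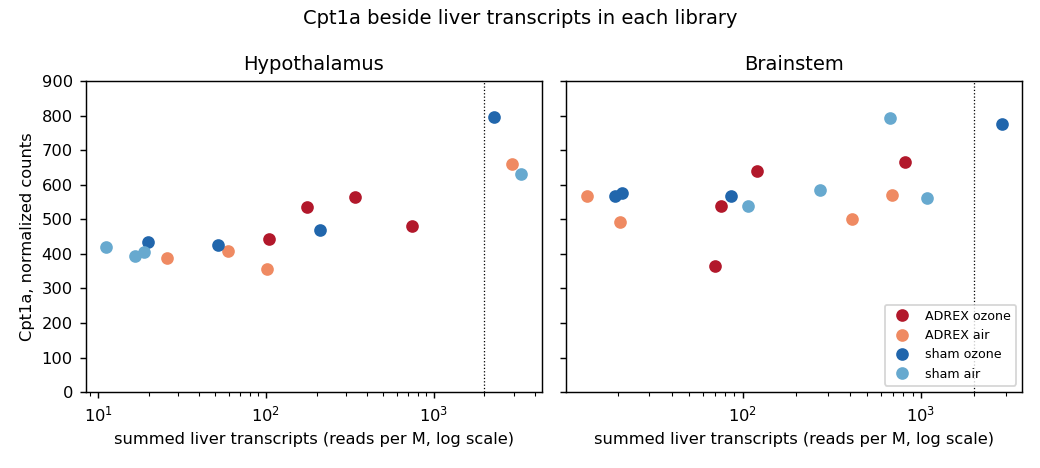
Cpt1a in normalized counts (y axis, linear) against the summed level of 9 liver transcripts in RPM (x axis, log scale), 1 point per library, in hypothalamus and brainstem. The 3 hypothalamic libraries over 2000 RPM are the 3 highest for Cpt1a, at 632 to 796.

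Cpt1c, the brain form found in neurons and known to have little transferase activity, had the narrowest range of the members in each tissue, taken as highest over lowest library, at 325 to 431 normalized counts in hypothalamus and 250.9 to 332 in brainstem. Its log2 changes with ozone or operation, interactions aside, lay between -0.10 and 0.15. For Cpt2, the inner-membrane transferase, they lay between -0.11 and 0.14. Slc25a20, the carrier between them, averaged 337 ± 37.7 in ADREX air and 275 ± 21.4 in sham air in brainstem (SD, n = 4 each), a log2 change of 0.29 ± 0.12 (limma adjusted p = 1.0). In hypothalamus the same contrast gave 0.13 ± 0.10 (limma adjusted p = 0.933).

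**Figure D4:**
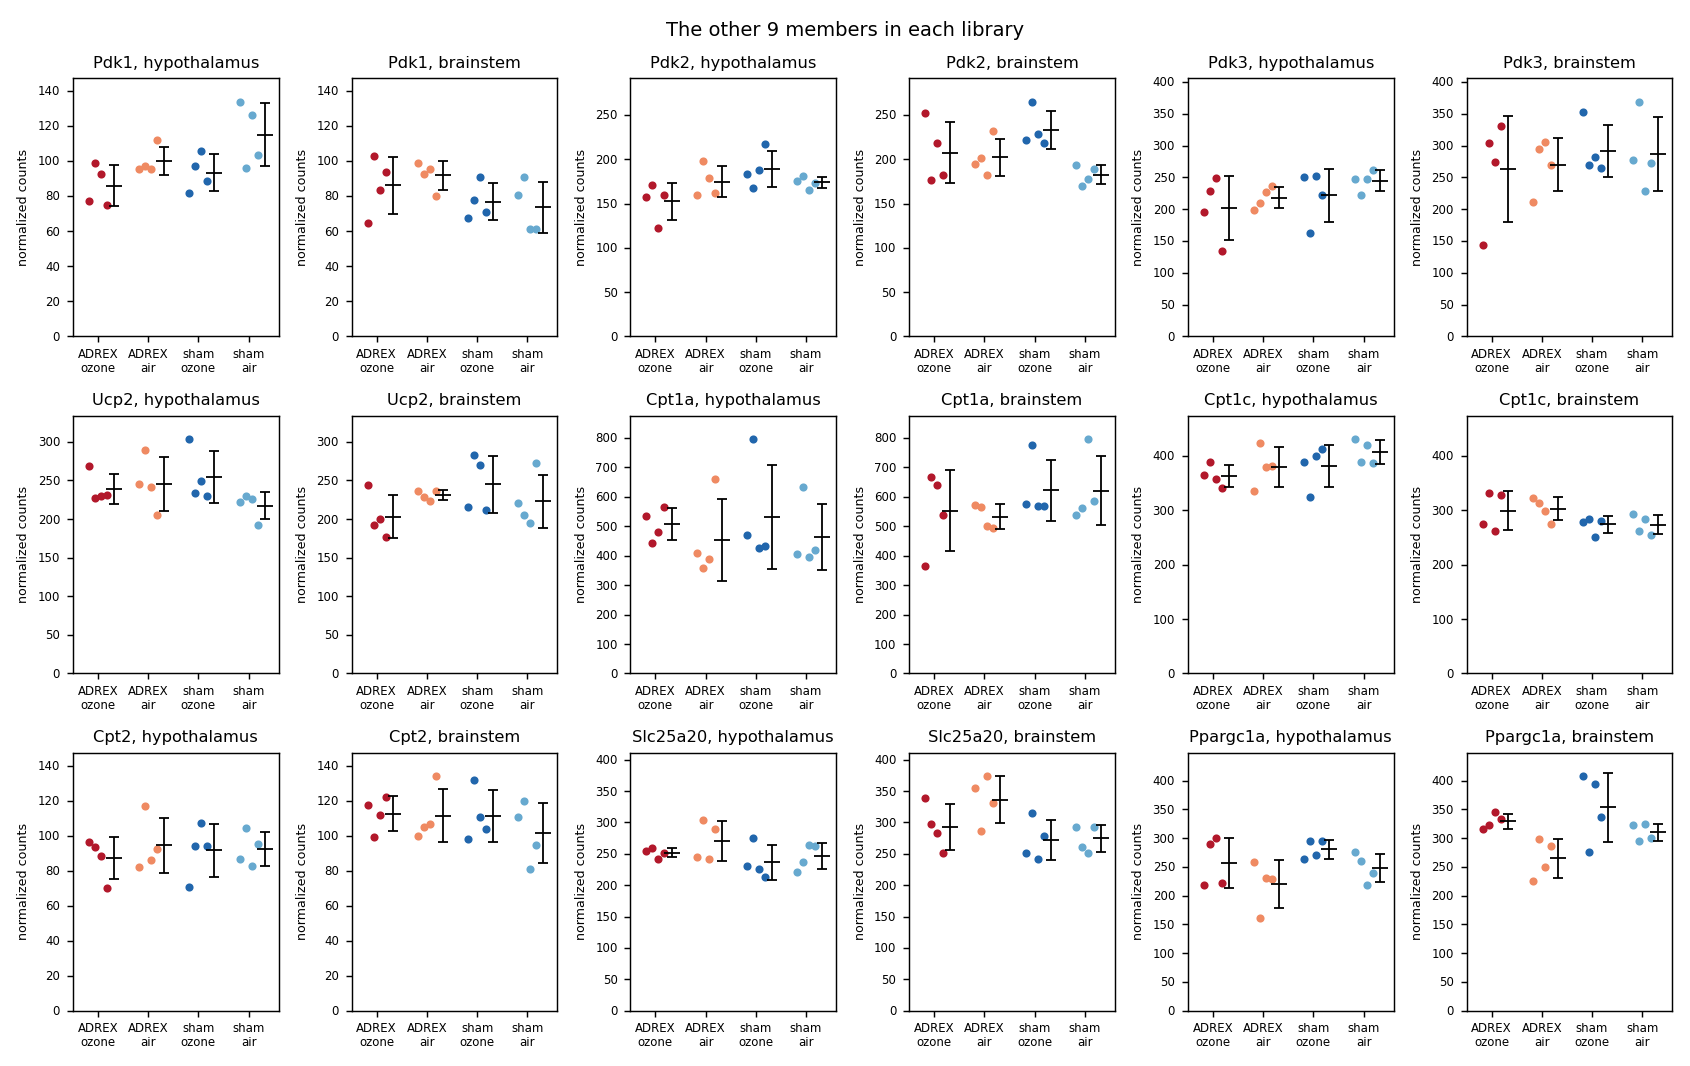
Normalized counts (y axes, linear, with their own scale per gene) of the other 9 members in each library of the 8 groups, with bars for the mean ± SD (n = 4 per group). Cpt1c is higher in every hypothalamic group than in every brainstem group by mean, and single high libraries of Cpt1a stand out.

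More members were called between tissues than in any other contrast. This contrast had 16 libraries on each side, against 4 on each side for ozone or operation, so smaller changes could pass. Over 32 libraries 9 of 10 members were called for hypothalamus against brainstem, of which 2 were higher and 7 lower, where 54.0% of all genes tested were called, 27.1% higher and 26.9% lower. Pdk4 fell furthest, with a lowest, median and highest of 19.9, 30.9 and 141 in hypothalamus and 46.6, 67.9 and 248 in brainstem, a log2 change of -1.09 ± 0.15 (limma adjusted p = 1.91e-07). Ppargc1a (-0.32 ± 0.07), Pdk3 (-0.32 ± 0.10), Cpt1a (-0.27 ± 0.10), Pdk2 (-0.26 ± 0.06), Cpt2 (-0.25 ± 0.07) and Slc25a20 (-0.22 ± 0.05) were lower too. The limma adjusted p-values ran from 1.30e-04 for Ppargc1a to 0.0279 for Cpt1a.

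Cpt1c rose furthest, with 325, 388 and 431 in hypothalamus and 250.9, 282 and 332 in brainstem as the lowest, median and highest, a log2 change of 0.41 ± 0.05 (limma adjusted p = 7.40e-09). Pdk1 was also higher in hypothalamus, by 0.26 ± 0.08 (limma adjusted p = 0.00394). Ucp2 did not differ beyond its error, at 0.09 ± 0.06 with a 95% interval of -0.04 to 0.21 (limma adjusted p = 0.253). For each member the libraries of the 2 tissues overlapped, as they did for all but 8.95% of genes tested. The Cpt1a call was lost without brainstem sham air 3 (-0.24, limma adjusted p = 0.0509) or without brainstem sham ozone 18 (-0.24, limma adjusted p = 0.0510), and without the 4 liver-rich libraries the change was -0.38 (limma adjusted p = 1.12e-04). All 9 calls held without those 4 libraries.

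**Figure D5:**
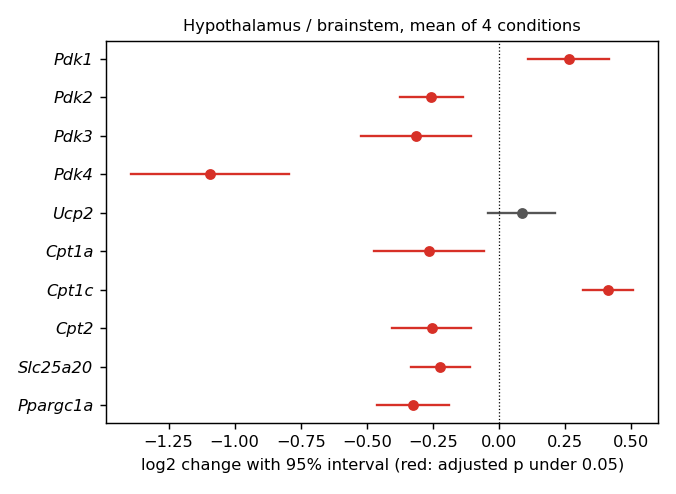
Log2 change of each member for hypothalamus against brainstem over 32 libraries (x axis) with its 95% interval. Pdk4 lies lowest at -1.09 and Cpt1c highest at 0.41, and the interval of Ucp2 spans 0.

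Cell type markers differed between the tissues as well. All 8 oligodendrocyte markers were lower in hypothalamus (median log2 change -1.19), with summed levels of 122481 to 196753 normalized counts in hypothalamus and 277752 to 459175 in brainstem. Of the astrocyte markers 5 of 8 were called lower and 1 called higher, with sums of 24691 to 30776 in hypothalamus and 39287 to 49512 in brainstem. Of the neuron markers 5 of 8 were called lower and 1 called higher, and all 7 endothelial markers were called lower. The part of these cell types in the tissue differences of the members was not tested.

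Around these genes, 99 further genes of the same pathways were listed, of which 95 were tested. In sham hypothalamus Acsl3, a long-chain acyl-CoA synthetase that activates fatty acids, was the only one called with ozone, at 3358 ± 222 in ozone and 2623 ± 52.5 in air (SD, n = 4 each), a log2 change of 0.35 ± 0.08 (limma adjusted p = 0.0291). This was 1.05% of the 95, where 1.59% of all genes were called. In ozone-exposed hypothalamus Acsl3 was lower in ADREX rats, with a log2 change of -0.56 ± 0.08 (limma adjusted p = 6.10e-04). There Foxo1, a forkhead factor known to drive Pdk4 in liver and muscle, was lower with a change of -0.60 ± 0.13 (limma adjusted p = 0.0207), and Aldoc, the brain aldolase of glycolysis, with -0.58 ± 0.11 (limma adjusted p = 0.00643). That made 3 of 95 called (3.16%), all lower, where 2.24% of all genes were called. Foxo1 was not called in ozone-exposed brainstem (-0.22 ± 0.19, limma adjusted p = 0.743), and its part in the Pdk4 change was not tested. In air Aldoc also had a negative change in hypothalamus (-0.46 ± 0.11, limma adjusted p = 0.393), as did Foxo1 (-0.33 ± 0.13, limma adjusted p = 0.824). Neither was called. With ozone in sham hypothalamus Foxo1 changed by -0.08 ± 0.13 (limma adjusted p = 0.819), where Pdk4 had a positive change. In ozone-exposed brainstem 1 of 95 was called (1.05%, where 2.44% of all genes were called), the nuclear receptor gene Ppard, lower in ADREX rats with a log2 change of -0.48 ± 0.11 (limma adjusted p = 0.0246). In the other contrasts of ozone or operation 0 of 95 were called.

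Between tissues 15 of the 95 were called higher in hypothalamus and 38 called lower, where 27.1% of all genes were called higher and 26.9% lower. In both directions together 55.8% of the 95 were called, near the 54.0% of all genes, but with more of them lower than higher. Pdp1, the phosphatase that undoes the kinases' work on pyruvate dehydrogenase, was 1.93 ± 0.09 higher on the log2 scale (limma adjusted p = 1.79e-17). Ldha, a lactate dehydrogenase subunit, was 0.89 ± 0.09 higher (limma adjusted p = 1.43e-09). Esrrg, an estrogen-related receptor that partners PGC-1α, was lower with a log2 change of -1.17 ± 0.06 (limma adjusted p = 4.16e-17), and Lpin1, a coactivator of the same pathway, with -0.73 ± 0.07 (limma adjusted p = 6.84e-10).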

How the data were processed

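Brainstem and hypothalamus RNA was made into mRNA libraries and sequenced on an Illumina NextSeq 500, per the labels' protocols. The authors deposited a signal: normalized read counts of 22587 genes in 32 libraries. The submitters' processing notes name Partek, DESeq2 and the build rn6, giving neither role nor version. These sources state neither the aligner nor the annotation. Dividing each column by its step (0.623 to 1.25) recovered whole reads for 100% of values, within 0.001.

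Values were tested as log2(value + 1) with limma 3.58.1 (trend, R 4.3.3), for genes with a mean of at least 10 over the libraries of the fit, adjusted over all genes tested by Benjamini-Hochberg. Each tissue was fitted on 16 libraries with 4 group means, and contrasts between tissues on all 32 with 8. Promoter sequences are RefSeq's, of assembly GRCr8. The settings tried beside these were a pseudocount of 0.5 or 5, a mean minimum of 50 or none, quantile normalization, edgeR 4.0.16 with TMM and DESeq2 1.42.0 on the recovered reads, the compared groups alone, no libraries with over 2000 RPM of liver transcripts, each library left out, and the replicate number as a block. The script was tested on simulated data. Genes named are the 10 members, up to 4 called genes of each pathway list per contrast, and the 3 genes most correlated with a member called for ozone or operation. The members and lists were chosen with earlier results of these data known.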

Additional observations from a re-analysis of the deposited data

Results flagged for a closer look

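Of the 80 groups of 4 (10 members in 8 groups), 7 held a library whose gap to its nearest neighbour, over the range of the group, passed Dixon's 95% critical value. Chance gives about 1 in 20. For Cpt1a the highest library stood apart in brainstem sham ozone 18 (777 normalized counts, next 577), hypothalamus sham ozone 18 (796, next 470) and hypothalamus sham air 2 (632, next 419). These 3 libraries are among the 4 rich in liver transcripts. Pdk1 stood apart in hypothalamus ADREX air 68 (112, next 97.3), which is the fourth of them.

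Pdk4 was low in hypothalamus ADREX air 66 (22.1, next 30.4). Ucp2 was high in hypothalamus ADREX ozone 81 (269, next 231). Cpt1c was low in brainstem sham ozone 19 (250.9, next 279).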

How the results depend on the processing

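The Pdk4 call for ADREX against sham in ozone held in brainstem in all 25 settings (adjusted p 7.74e-08 to 0.0266) and in hypothalamus in the 24 settings in which it was tested (1.08e-06 to 0.0370). In brainstem sham ozone 18 is the sole liver-rich library, so leaving it out and leaving out liver-rich libraries are the same fit. With a mean of at least 50 Pdk4 was not tested in hypothalamus, so 0 members were called there. For ozone against air in sham rats the number of members called was 1 in place of 0, always Pdk4, in brainstem with DESeq2 (log2 change 1.07), without liver-rich libraries and without sham ozone 18 (1.21 for both), and in hypothalamus with edgeR (1.35), DESeq2 (1.35), without liver-rich libraries (1.39) and without sham ozone 18 (1.52). With single libraries left out the number was 0 to 1 in both tissues. The difference in ozone response of Pdk4 between tissues ran from -0.012 to 0.52 with single libraries left out.

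For hypothalamus against brainstem 8 to 9 members were called over the left-out libraries. With the replicate number as a block 9 were called for this contrast, and 0 for the ozone response difference, as without it. Of 16 same-number pairs 7 had a correlation over 0.1 (range -0.53 to 0.61, median 0.03), and 4 were best with their own number. The highest was of number 18, liver-rich in both tissues, and the lowest of number 68, liver-rich in hypothalamus only. These correlations therefore cannot decide whether libraries of the same number came from the same rat. Results of the tissues are thus not counted as independent of each other. Over 3295 alternative values of the members 132 changed sign, none of them a called value. Depth limits Pdk4 most in hypothalamus, where its lowest library had 17 reads.

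Over all genes, edgeR on the recovered reads called 316 genes for ADREX against sham in ozone in hypothalamus and 346 in brainstem, where limma called 325 and 352. DESeq2 called 453 and 488, and limma on the compared groups alone 161 and 148. Without the liver-rich libraries limma called 591 in hypothalamus and 290 in brainstem, and with single libraries left out 198 to 584 and 197 to 444. For ozone against air in sham rats DESeq2 called 412 in hypothalamus and 237 in brainstem, edgeR 235 and 134, and limma 230 and 141. For the interaction DESeq2 called 53 in hypothalamus and 74 in brainstem, against 20 and 29 by limma.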
